A study of Mus musculus with 7 samples.

Results

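The acyl-CoA thioesterases described here are 7 genes, Acot1, Acot2, Acot3, Acot4, Acot5, Acot8 and Acot12, chosen by name: every non-control probe of the arrays that carried one of these gene names was taken. This gave 10 of 55681 probes and 7 of 36492 gene names, and all 7 genes were among the 20002 that could be tested. The livers came from C57BL/6 mice, all female, 8 to 12 weeks old and fasted for 24 h: 3 were wild type (WT) and 4 were SHIVA mutants. SHIVA mice carry a chemically induced point mutation that replaces a methionine by an arginine in the HMG domain, the DNA-binding part, of the transcription factor Sox17. Per the study's methods, the allele was backcrossed to C57BL/6 and viable mutants were heterozygous, so a normal Sox17 allele remained in them, and the mutation was present in every cell rather than in the liver alone. Each mouse gave 1 array of whole-liver RNA. There were no fed mice on these arrays, so the levels below are levels during fasting and not responses to it. The comparison asked whether the mutation altered liver transcription in fasted animals.

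Acyl-CoA thioesterases split a fatty acyl-CoA into the free acid and coenzyme A. Acyl-CoA synthetases do the reverse, so the pair of reactions sets how much of a fatty acid is activated and how much coenzyme A is free in each compartment of the cell. In liver, several thioesterase genes are classical targets of PPARα, the nuclear receptor that fasting and fatty acids activate, and the enzymes lie in the cytosol (Acot1, Acot12), in mitochondria (Acot2) and in peroxisomes (Acot3, Acot4, Acot5, Acot8). Acot1 to Acot5 are close relatives that sit side by side on chromosome 12, whereas Acot8 and Acot12 belong to a structurally different type and lie elsewhere.

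The gene cluster and its probes come first, because the resemblance of these genes sets how well an array can tell them apart. Each probe is an oligonucleotide of 60 bases. In the mm9 coordinates of the array files the probes that stood for the chromosome 12 genes lay in the order Acot2 (chr12:85334071-85334130), Acot1 (chr12:85358561-85358620), Acot4 (chr12:85384821-85384880), Acot3 (chr12:85400452-85400511) and Acot5 (chr12:85416634-85416693), spanning 82.6 kb in all. The probe of Acot8 lay at chr2:164620497-164620556 and that of Acot12 at chr13:91925586-91925645. Among the probes of different members the longest run of identical bases was 9, shared by Acot1 and Acot3. Whether a probe also matches the transcript of a relative was not tested, since no transcript sequences were used here.

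Acot3, Acot5 and Acot8 had a second probe each, which allowed a repeat reading of the same transcript. In each of these pairs 1 probe holds the letters AATAAA, the usual polyadenylation signal, and the other does not. The probes without those letters are shown as the files give them, since they carry much of the Acot5 and Acot8 results below and a second reading of Acot3.
Acot3 (chr12:85399468-85399527): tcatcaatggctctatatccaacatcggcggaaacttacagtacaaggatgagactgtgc
Acot5 (chr12:85416634-85416693): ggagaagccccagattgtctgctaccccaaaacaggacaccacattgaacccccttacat
Acot8 (chr2:164620497-164620556): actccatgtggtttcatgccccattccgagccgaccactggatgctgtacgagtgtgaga

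All 10 probes were well above background on all 7 arrays. The values that follow are log2 signal after quantile normalization, and a log2 fold change is SHIVA minus WT. A level of 1 probe cannot be set against that of another, so the genes are compared only by their differences between mice. In whole liver, fewer cells of a type and less RNA per cell cannot be told apart.

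All 7 genes had a lower mean in the SHIVA livers, as did 51.2% of all genes tested, with fitted differences from 6.44-fold for Acot1 to 1.18-fold for Acot12. None passed the Benjamini-Hochberg adjusted threshold of 0.05 in limma, where 0.375% of all genes tested did (75 of 20002, of which 38, or 0.19%, were lower in SHIVA). At an unadjusted p under 0.05, 6 of the 7 members were lower in SHIVA, beside 6.09% of all genes lower and 13.3% in either direction. In 4 members every SHIVA liver lay below every WT liver, beside 6.02% of all genes. The median log2 fold change of the members was -1.24 and that of all genes tested -0.0074. A fitted log2 fold change below -1 was found for 4 members, Acot1, Acot2, Acot3 and Acot5, and for 1.27% of all genes. The methods' t-test called 0 genes of the whole table after adjustment, with 2299 genes and 6 members at an unadjusted p under 0.05.

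**Figure D1:**
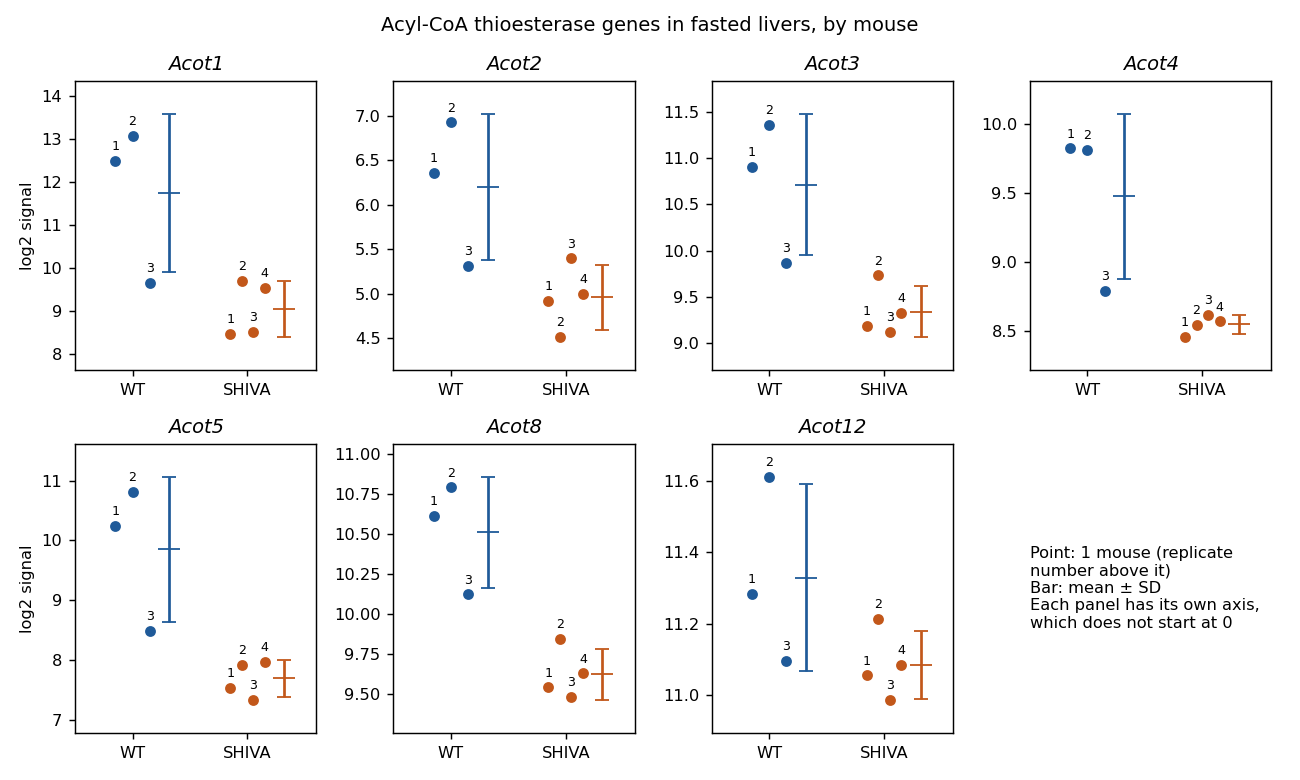
Log2 signal of each of the 7 genes in the 3 WT and 4 SHIVA livers, 1 point per mouse with its replicate number, and mean ± SD beside the points. Each panel has its own axis, which does not start at 0. In every panel WT replicate 3 is the lowest WT mouse, and in Acot3, Acot4, Acot5 and Acot8 all SHIVA points lie below all WT points.

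Acot1, the cytosolic enzyme for long-chain acyl-CoA, varied most. Its log2 signal was 12.50, 13.08 and 9.65 in WT replicates 1 to 3, and 8.48, 9.71, 8.51 and 9.54 in SHIVA replicates 1 to 4. The genotypes overlapped, because WT replicate 3 fell just below SHIVA replicate 2. The WT mean was 11.74 ± 1.83 (SD, n = 3), and the SHIVA mean 9.06 ± 0.655 (SD, n = 4). The fitted log2 fold change was -2.69 (SE 0.75, 95% interval -4.40 to -0.98, limma adjusted p = 0.204). The 3 WT mice alone spanned 10.8-fold, and the 7 mice together 24.3-fold.

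Acot2, the mitochondrial relative of Acot1, read 6.36, 6.93 and 5.31 in the WT mice and 4.92, 4.51, 5.40 and 5.0 in the SHIVA mice. Here too the genotypes overlapped, with WT replicate 3 below SHIVA replicate 3. The group means of 6.20 ± 0.82 (SD, n = 3) and 4.96 ± 0.36 (SD, n = 4) gave a log2 fold change of -1.24 (SE 0.37, 95% interval -2.07 to -0.41, limma adjusted p = 0.223), or 2.36-fold. The size depended on the background correction, the log2 fold change being -0.65 with normexp correction and -0.84 on the mean signal.

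The peroxisomal members encoded on chromosome 12 are Acot3, which acts on long-chain acyl-CoA, Acot4, which acts on succinyl-CoA and other dicarboxylyl-CoA, and Acot5, which acts on medium-chain acyl-CoA. Acot5 gave the widest separation of the 7 genes. Its values were 10.24, 10.82 and 8.49 in WT and 7.53, 7.92, 7.34 and 7.97 in SHIVA, so the lowest WT mouse stood 0.52 log2 units above the highest SHIVA mouse. The means were 9.85 ± 1.21 (SD, n = 3) and 7.69 ± 0.31 (SD, n = 4), a log2 fold change of -2.16 (SE 0.48, 95% interval -3.27 to -1.06, limma adjusted p = 0.132), or 4.47-fold.

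Acot3 read 10.91, 11.36 and 9.87 in WT and 9.19, 9.73, 9.12 and 9.33 in SHIVA. The genotypes did not overlap, but the gap between WT replicate 3 and SHIVA replicate 2 was only 0.14 log2 units. With means of 10.71 ± 0.76 (SD, n = 3) and 9.34 ± 0.27 (SD, n = 4), the log2 fold change was -1.37 (SE 0.33, 95% interval -2.12 to -0.61, limma adjusted p = 0.149), or 2.58-fold.

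Acot4 was the most even gene among the mutants. Its values were 9.82, 9.81 and 8.79 in WT and 8.46, 8.55, 8.62 and 8.57 in SHIVA, again without overlap and with WT replicate 3 only 0.17 log2 units above the nearest mutant. The means were 9.48 ± 0.59 (SD, n = 3) and 8.55 ± 0.068 (SD, n = 4). The log2 fold change was -0.93 (SE 0.25, 95% interval -1.50 to -0.35, limma adjusted p = 0.195), or 1.90-fold.

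Acot8, a peroxisomal thioesterase of broad range that also acts on bile acid CoA esters, read 10.62, 10.79 and 10.12 in WT and 9.54, 9.84, 9.48 and 9.63 in SHIVA. No mouse overlapped, and the gap was 0.28 log2 units. The means of 10.51 ± 0.35 (SD, n = 3) and 9.62 ± 0.16 (SD, n = 4) gave a log2 fold change of -0.89 (SE 0.19, 95% interval -1.33 to -0.45, limma adjusted p = 0.121), or 1.85-fold. This was the smallest adjusted p of the 7 genes.

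Acot12, the cytosolic acetyl-CoA hydrolase, read 11.28, 11.61 and 11.09 in WT and 11.05, 11.21, 10.99 and 11.08 in SHIVA. WT replicate 3 lay among the mutants. The log2 fold change was -0.24 (SE 0.16, limma adjusted p = 0.569), and its 95% interval, -0.61 to 0.12, held 0.

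The second probes gave the same direction in all 3 genes, but not the same size in Acot5. The upstream Acot3 probe printed above read 10.10, 10.61 and 9.42 in WT against 8.48, 8.73, 8.32 and 8.69 in SHIVA, a log2 fold change of -1.49 (SE 0.27, limma adjusted p = 0.082 over single probes, of which 0.232% were called) without overlap, as in 6.15% of all probes. The second Acot8 probe, at chr2:164618269-164618328, gave -0.81 (SE 0.29, adjusted p = 0.282) and SHIVA replicate 2 overlapped with WT replicate 3. The second Acot5 probe, at chr12:85416893-85416951, was far dimmer, between 3.72 and 5.59, and gave -0.49 (SE 0.38, adjusted p = 0.633) with overlap. The larger Acot5 difference therefore rests on the printed probe alone.

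Within the wild-type group the livers were far from alike. WT replicate 3 was the lowest WT mouse in 7 of 7 members, as it was in 36.6% of all genes, and WT replicate 2 was the highest of all 7 mice in 6 of 7 members, the exception being Acot4, as it was in 16.1% of all genes. The SD between WT mice exceeded that between SHIVA mice in 7 of 7 members and in 55.3% of all genes. These traits were not particular to the members. Of the 26 PPARα targets listed below, WT replicate 3 was the lowest WT mouse in 19. WT replicate 2 was the highest of all mice in 19, and the WT SD was larger in 22. The same counts were 13, 10 and 16 of 22 genes of peroxisomal fatty acid oxidation, and 4, 3 and 10 of 15 genes listed below as other thioesterases. Measured from the mean of the other WT livers towards the SHIVA mean, WT replicate 3 had gone 84.0% of the way for Acot1, 81.1% for Acot4, 78.9% for Acot2, 71.8% for Acot5, 70.5% for Acot3 and 53.7% for Acot8. For Acot12, whose groups hardly differed, it was 97.3%. Kupffer cell markers, which mark the resident macrophages of liver, were also highest among WT mice in this liver, with a summed log2 signal of 14.93 against a WT low of 13.81, and their part in the result was not tested.

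**Figure D2:**
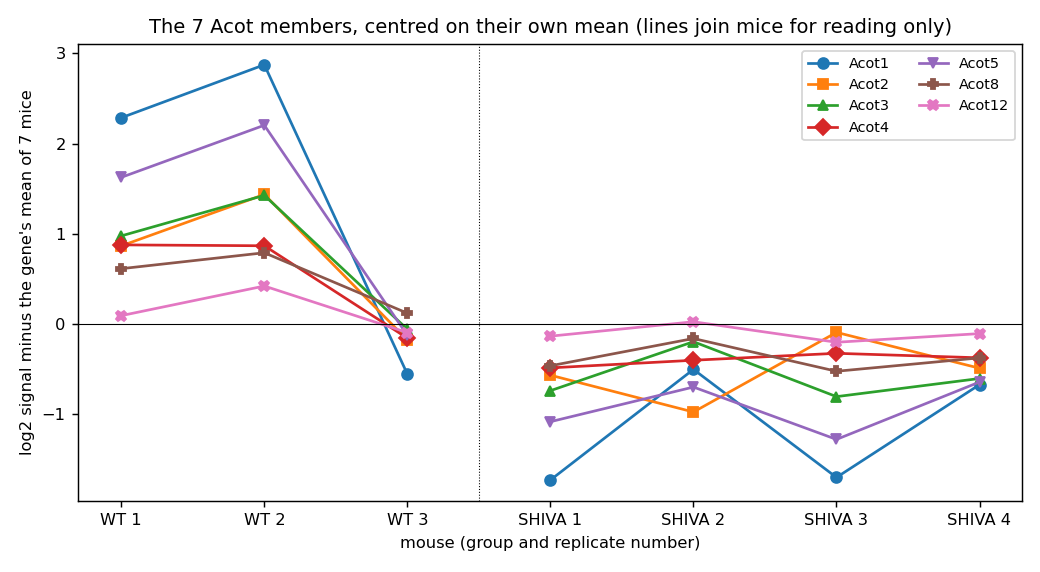
Log2 signal of the 7 genes in each mouse after subtracting the gene's own mean over the 7 mice, with lines joining the values of a gene for reading only. WT replicates 1 and 2 stand above 0 in all 7 genes, while WT replicate 3 lies between -0.56 and 0.12.

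Among the mutants, SHIVA replicates 2 and 4 both lay above replicates 1 and 3 in 5 of 7 members, Acot1, Acot3, Acot5, Acot8 and Acot12, and in 24.5% of all genes. In Acot2, by contrast, SHIVA replicate 2 was the lowest mutant and replicate 3 the highest. The spread over all 7 mice exceeded 1 log2 unit in 6 of 7 members and in 32.4% of all genes.

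Leaving out WT replicate 3 changed the calls. Without it 6 of the 7 genes passed the limma adjusted threshold, all but Acot12, with adjusted p from 0.00758 for Acot5 to 0.0311 for Acot2. All 7 were free of overlap between genotypes, which comes more easily with fewer mice. The share of all genes free of overlap in this fit is not given here. The log2 fold changes were then -3.73 for Acot1, -2.84 for Acot5, -1.79 for Acot3, -1.68 for Acot2, -1.27 for Acot4 and -1.08 for Acot8. The number of genes called in the whole table rose with it, from 75 to 416 of 19784 tested. Without WT replicate 1 or WT replicate 2, or without any of the SHIVA mice, 0 members were called, and the whole-table count lay between 3 and 62. When limma weighted the arrays by their fit instead of leaving one out, Acot1 (-3.43, adjusted p = 0.047), Acot3 (-1.68, adjusted p = 0.0354), Acot5 (-2.58, adjusted p = 0.0309) and Acot8 (-1.04, adjusted p = 0.0301) were called, among 269 genes. Each mouse was left out in turn, so these fits describe how far 1 mouse set the result and are not a test in place of that on all 7.

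**Figure D3:**
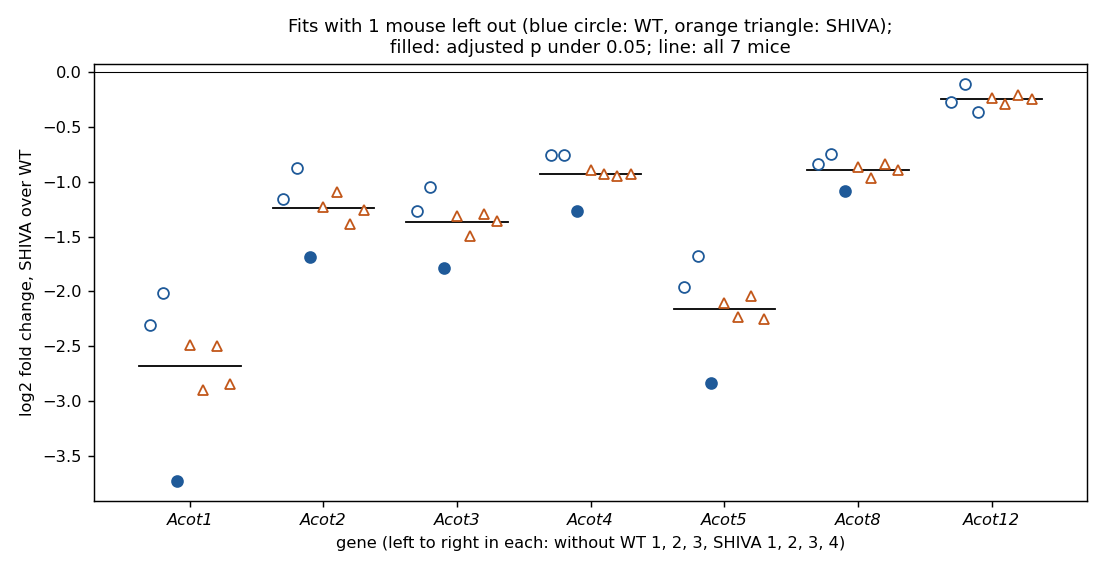
Fitted log2 fold change, SHIVA over WT, of each gene with 1 mouse left out at a time (circles: a WT mouse left out; triangles: a SHIVA mouse left out; filled: adjusted p under 0.05; line: all 7 mice). The filled points belong to the fits without WT replicate 3, where 6 of 7 genes pass.

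To ask whether the members differed by unequal amounts, the log2 ratio of each of the 21 pairs was compared between genotypes by a two-sided exact permutation test over the 35 splits of the mice, whose smallest possible p is 0.0286. At that smallest p, and without overlap, were 7 pairs. They were Acot12 against Acot1, Acot3, Acot4, Acot5 and Acot8, and Acot5 against Acot4 and Acot8. None passed adjustment over the 21 pairs, the smallest adjusted p being 0.0857. With 7 mice a pair can hardly pass that adjustment, so these tests do not settle the order of the fold changes. How often pairs of other genes are free of overlap is not given here. Acot12 itself differed little (log2 fold change -0.24), so its pairs mostly repeat the difference of the partner gene.

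The members were also compared by how far apart their values lay over the 7 mice. This measure grows with a difference in fold change as well as in the order of the mice. Acot4 and Acot8, encoded on chromosomes 12 and 2, were the closest pair by it. After each gene was centred on its own mean, their root mean square difference was 0.189 log2 units. It was 0.321 for Acot3 and Acot4, 0.494 for Acot1 and Acot5, and 1.53 for Acot1 and Acot12, the farthest pair.

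Ranked over all genes tested by the same measure, the 3 nearest to Acot1 were Fgf21, a fasting hormone of the liver (0.392), Acot5 (0.494) and Cyp4a14, a fatty acid omega-hydroxylase (0.56), where the median over all genes was 1.71. Fgf21 read 7.30, 7.75 and 4.57 in WT and 4.36, 5.13, 3.76 and 4.47 in SHIVA, with the same low WT replicate 3. Nearest to Acot3 were Tlr5, the flagellin receptor (0.126), Crat, which moves acyl groups from CoA to carnitine (0.131), and 4633401B06Rik (0.135), beside a median of 0.838. Nearest to Acot2 were the carnitine transporter Slc22a5 (0.22), ENSMUST00000100512 (0.246) and Mgll, the monoglyceride lipase (0.25), beside 0.822. For Acot4 they were D16Ertd472e (0.0804), ENSMUST00000085979 (0.0955) and Ndufaf4 (0.12), beside 0.603. For Acot5 they were 2310001K24Rik (0.294), H1f4 (0.329) and Clstn3 (0.354), beside 1.28. Of these, 2310001K24Rik was well above background on only 2 WT and 1 SHIVA arrays, so its values rest largely on dim signal. For Acot8 they were Nceh1 (0.1205), 9330133O14Rik (0.1209) and Eid2b (0.131), beside 0.54.

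The tested genes on either side of the chromosome 12 cluster had fitted values near 0. Of the 5 nearest protein-coding genes on each side in GRCm38.p6, 4 tested genes are described: Numb (-0.07), Riox1 (-0.11), Acot6 (-0.22) and Mideas (0.10), each value a log2 fold change. All 4 overlapped between genotypes, 0 had an unadjusted p under 0.05, and their limma adjusted p ran from 0.694 to 0.896. Acot6, the next relative in the cluster, was the nearest tested gene beyond Acot5.

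**Figure D4:**
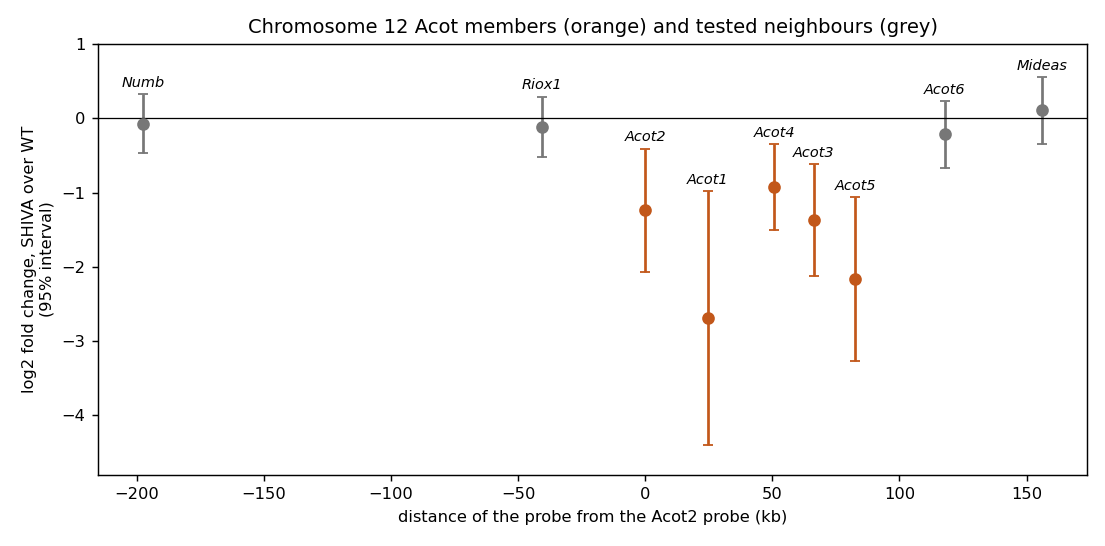
Log2 fold change, SHIVA over WT, with 95% intervals, of the 5 chromosome 12 members (orange) and of 4 tested neighbours (grey), plotted by the distance of each probe from the Acot2 probe in kb. The intervals of the members lie below 0 and those of the neighbours include 0.

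Stretches upstream of the start sites were read for the motif that PPARα binds with its partner RXR, the letters AGGTCA repeated with 1 base between the copies, and for the SOX core AACAAT, on both strands of the window from 250 bases before to 50 bases after the start of each gene in RefSeq (GRCm38.p6). The repeated motif was in 0 of 7 member windows and in 0.0396% of 32851 windows in the table. Its relaxed form, with any base in place of each T, was in 0 of 7 and in 0.381%. A lone AGGTCA, which any repeated motif also holds, was in 4 of 7, those of Acot3, Acot4, Acot5 and Acot12, and in 16.3% of all windows. AACAAT was in 0 of 7 and in 10.7%. A match is a run of letters and not a bound site, and PPARα sites can lie outside such a window. The 250 bases before the start are shown for Acot1, which had no match and the largest fold change, and for Acot4 and Acot5, with the letters of AGGTCA or of its reverse complement TGACCT in capitals.
Acot1 (chr12:84009252-84009501, plus strand): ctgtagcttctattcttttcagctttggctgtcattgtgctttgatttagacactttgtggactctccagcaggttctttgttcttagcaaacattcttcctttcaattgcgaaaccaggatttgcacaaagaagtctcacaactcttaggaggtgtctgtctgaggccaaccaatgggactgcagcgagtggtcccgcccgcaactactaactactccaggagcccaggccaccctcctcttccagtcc
Acot4 (chr12:84038129-84038378, plus strand): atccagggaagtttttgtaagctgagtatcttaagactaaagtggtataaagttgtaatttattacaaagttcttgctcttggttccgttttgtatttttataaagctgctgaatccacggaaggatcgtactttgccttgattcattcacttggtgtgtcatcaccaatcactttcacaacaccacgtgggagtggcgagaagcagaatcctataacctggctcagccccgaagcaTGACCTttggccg
Acot5 (chr12:84069074-84069323, plus strand): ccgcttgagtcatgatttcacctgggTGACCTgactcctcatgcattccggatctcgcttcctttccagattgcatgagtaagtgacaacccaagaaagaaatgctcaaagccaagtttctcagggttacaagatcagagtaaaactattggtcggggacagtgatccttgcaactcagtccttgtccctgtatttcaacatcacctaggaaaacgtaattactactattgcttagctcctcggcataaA
Counting the last base before the start as -1, the match in Acot4 begins at -13, and those in Acot5 begin at -224 and at -1. The last of these runs on past the start, so only its first letter is printed.

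Other enzymes of the family and of the pathway put these values in context. Another list of 18 genes includes the remaining Acot genes, lysosomal palmitoyl-protein thioesterases and fatty acid synthase, whose cycle ends with a thioesterase step. It is called other thioesterases here, although it also holds Mcat, an acyltransferase (log2 fold change -0.06). Of the 18 genes, 15 were tested. Of these 9 had a lower and 6 a higher fitted value in SHIVA, with a median log2 fold change of -0.05. limma called 0, 2 had an unadjusted p under 0.05, both lower, and in all 15 the genotypes overlapped. Shares of all genes tested stand beside this list and those that follow. At an unadjusted p under 0.05 they were 6.09% lower and 13.3% in either direction. Without overlap they were 6.02% lower and 12.2% in either direction. The 3 with the largest fitted differences were Acot11 (-0.70, SE 0.29, adjusted p = 0.346), Fasn (-0.66, SE 0.27, adjusted p = 0.352) and Ppt1 (0.36, adjusted p = 0.453).

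**Figure D5:**
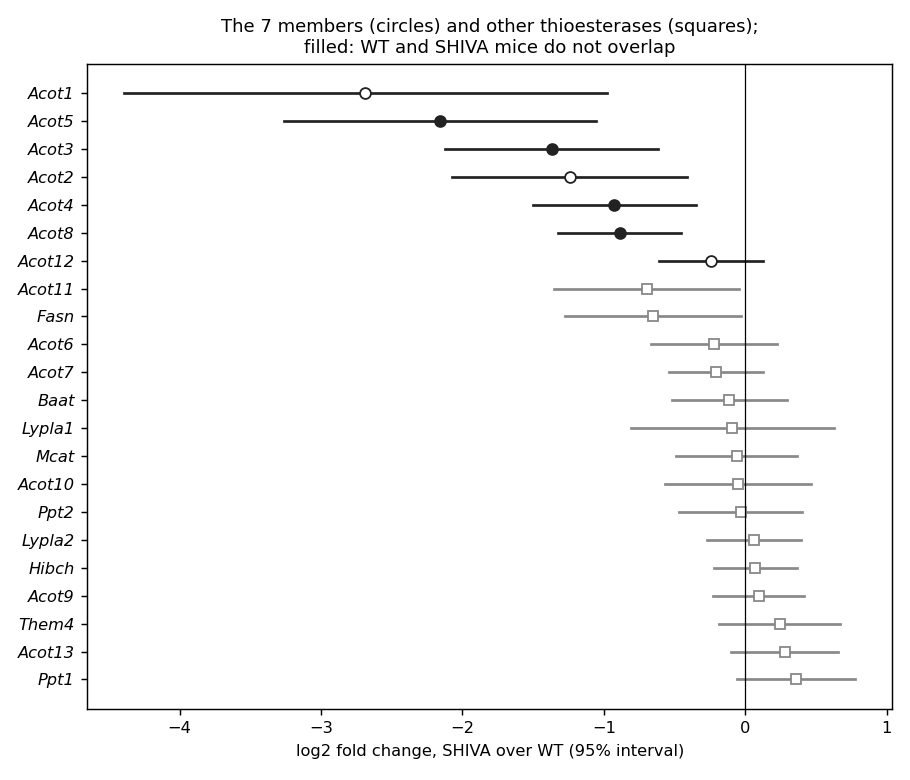
Log2 fold change, SHIVA over WT, with 95% intervals, of the 7 members (circles) and of the 15 tested genes listed as other thioesterases (squares). Filled symbols mark genes whose WT and SHIVA mice do not overlap, which are Acot3, Acot4, Acot5 and Acot8. Of the members, Acot12 has an interval that includes 0.

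The acyl-CoA synthetases, which run the opposite reaction, had fitted values in both directions. Of 18 tested of 23 listed, 7 had a lower and 11 a higher fitted value, limma called 0, and the median log2 fold change was 0.07. At an unadjusted p under 0.05, 1 was lower and 2 higher. Acss1, a mitochondrial acetyl-CoA synthetase, had the largest fitted difference. It was well above background on all 4 SHIVA arrays and on 0 WT arrays, so it was tested only through the SHIVA group. Against the lowest signal above background on the WT arrays it was at least 1.66-fold higher in SHIVA. It is 1 of the 2 higher genes counted above, and its p is left out, since the filter let it in through the group where it is high. Slc27a3, above background on 1 WT and 4 SHIVA arrays, followed with a log2 fold change of 0.92 (SE 0.31, adjusted p = 0.258) and overlapped.

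Of 11 tested genes of coenzyme A synthesis and breakdown, 9 had a lower fitted value, 0 were called by limma, 2 had an unadjusted p under 0.05 and 3 did not overlap, all lower. Vnn1, the pantetheinase that splits pantetheine from the breakdown of coenzyme A, read 9.18, 10.22 and 9.41 in WT and 8.42, 7.32, 8.54 and 7.97 in SHIVA. Its log2 fold change was -1.54 (SE 0.34, limma adjusted p = 0.132), and unlike the members it was not lowest in WT replicate 3 among the WT mice. Nudt7, a peroxisomal hydrolase of coenzyme A, gave -0.59 (SE 0.19, adjusted p = 0.247).

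Among 22 genes of peroxisomal fatty acid oxidation, 16 had a lower fitted value, limma called 0, 8 were lower at an unadjusted p under 0.05 and 7 did not overlap, all lower. Pex11a, a peroxisome division factor, gave -1.64 (SE 0.39, limma adjusted p = 0.145) and Crat -1.31 (SE 0.30, adjusted p = 0.132). Among 21 genes of mitochondrial fatty acid oxidation, 18 had a lower fitted value, 0 were called, 5 were lower at an unadjusted p under 0.05 and 6 did not overlap. The largest fitted difference there was that of Slc25a20, the carnitine-acylcarnitine carrier (-0.76, SE 0.18, adjusted p = 0.145).

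Of 26 tested PPARα targets outside these lists, 23 had a lower fitted value and the median log2 fold change was -1.08. At an unadjusted p under 0.05, 17 were lower and 2 higher. limma called Retsat, the retinol saturase (-1.56, SE 0.24, adjusted p = 0.0455), and Me1, malic enzyme (-1.07, SE 0.17, adjusted p = 0.0455), both lower in SHIVA. The largest fitted differences, Cidec, a lipid droplet protein (-2.79, adjusted p = 0.277), and Cyp4a14 (-2.27, adjusted p = 0.164), did not pass. Cidec was well above background on only 2 WT and 1 SHIVA arrays, so its fitted value rests largely on dim signal. These lists were drawn up with earlier results of these arrays known, and their counts are a description.

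On its brightest probe Ppara itself read 12.19, 12.61 and 12.33 in WT and 11.66, 11.75, 11.64 and 11.78 in SHIVA, with no overlap. Its log2 fold change was -0.67 (SE 0.15, limma adjusted p = 0.132). On that probe WT replicate 3 lay 10.4% of the way from the other WT mice to the SHIVA mean. On the dimmer Ppara probes it was the lowest WT mouse, though on the brighter of these it was level with WT replicate 1 (10.33 against 10.34). The dimmest read 8.95, 9.58 and 8.75 in WT and 8.47, 9.21, 8.28 and 8.42 in SHIVA, with overlap. Its log2 fold change was -0.50 (limma adjusted p = 0.50 over single probes). The remaining probe read 10.34, 10.78 and 10.33 in WT and 9.72, 9.94, 9.74 and 9.99 in SHIVA, without overlap (-0.63, adjusted p = 0.193). Sox17 was dim, at 4.52, 3.41 and 3.92 in WT and 4.62, 4.46, 4.76 and 4.70 in SHIVA, a log2 fold change of 0.69 (SE 0.25, adjusted p = 0.279) with overlap. A further Sox17 probe read 3.78, 3.54 and 3.91 in WT and 4.02, 4.33, 3.81 and 4.07 in SHIVA, also with overlap. Its log2 fold change was smaller, 0.31 (SE 0.17, limma adjusted p = 0.501 over single probes). These Sox17 probes do not report a point mutation and so do not check the genotype labels.

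Markers of hepatocytes were high on every array, and those of Kupffer cells and blood varied. Of the hepatocyte markers, 8 of 8 with a probe were well above background on all 7 arrays, and their summed log2 signal ran from 19.62 to 19.66 in WT and from 19.54 to 19.70 in SHIVA. The 6 Kupffer cell markers tested had higher fitted values in SHIVA in 6 of 6, with 0 called by limma, 1 at an unadjusted p under 0.05, and sums from 13.81 to 14.93 in WT and from 14.31 to 15.53 in SHIVA. Blood markers summed to between 15.49 and 15.95 in WT and between 15.79 and 16.65 in SHIVA. These sums were set largely by the globin Hba-a1, at 15.39 to 15.89 in WT and 15.69 to 16.59 in SHIVA. Of the 7 blood markers tested, 5 had a higher and 2 a lower fitted value in SHIVA, with 0 called by limma. Of the 5 adipocyte markers, Plin1, Cfd and Lep were above background on 0 arrays and Adipoq on 1, whereas Fabp4 was above it on all 7 (log2 fold change 0.81), and their sums ran from 8.19 to 9.04 in WT and from 9.02 to 9.53 in SHIVA. Of the 8 pancreatic acinar markers, Cpa1, Cpb1, Prss1 and Pnlip were above background on 0 arrays and Cela1 on 1, whereas Ctrb1 and Cel were above it on all 7 and Cela2a on 5, and their sums ran from 8.12 to 8.81 in WT and from 8.44 to 8.90 in SHIVA. The part of Kupffer, blood, adipose and pancreatic cells in the thioesterase values was not tested. All arrays lay on 1 slide with WT in the first row and SHIVA in the second, so place on the slide and genotype cannot be told apart.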

How the data were processed

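Whole-liver RNA of 7 fasted mice was labelled with Cy3 and hybridised to single-colour Agilent arrays, 1 per mouse. The authors deposited the scanner output, whose intensities came from Agilent Feature Extraction 10.5.1.1 without normalization between arrays, and a table of log2 values, which their methods describe as quantile normalized in R. Of 62976 spots per array, 3671 were controls. Well above background were 44.5% to 48.7% of the probes, 0 spots were saturated, and 120 to 163 uneven or deviant spots per array were left out. The number of arrays limits precision.

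Processed intensities were quantile normalized, put on the log2 scale and averaged over spots of a probe. The probe of highest mean signal stood for a gene. Genes above background on at least 3 arrays were fitted with limma 3.58.1 in R 4.3.3 and called where p, adjusted by Benjamini-Hochberg over all genes tested, was under 0.05. This test was tried on simulated data first. Accessions updated the names of 26413 probes (GRCm38.p6), and probe positions are those of mm9 in the file headers. Replicates are separate mice per the labels. Alternatives changed the signal column, background correction, scaling, filter, choice of probe, array weights, test, replicate block, and left out each mouse in turn.

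Members and gene lists were chosen with earlier results of these data known. Named genes are all members, the 3 other thioesterases with the largest fitted differences, and the 2 largest and any called in each other list. For the list of receptors and partners they are Ppara and Sox17. Neighbours are also named, with the 3 genes nearest by root mean square difference to each member spanning over 1 log2 unit. Some items that this rule takes in are not reported here. Acot6 and the named cell type markers fall under their lists.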

Additional observations from a re-analysis of the deposited data

Results flagged for a closer look

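A mouse stood apart from the other mutants, by Dixon's test at 95%, in 3 of the 56 members, second probes, other thioesterases and further named genes searched, where chance gives about 2.8. Crat, the carnitine acetyltransferase, was among the genes nearest to Acot3 in centred values. It read 7.05 in SHIVA replicate 2, whereas the other mutant livers lay between 6.85 and 6.88. In the same mouse Pex11a, the peroxisome division factor, read 12.12, against 11.91 to 11.94 for the rest of the group. Ppt1, the lysosomal palmitoyl-protein thioesterase, read 7.54 in SHIVA replicate 3 and 7.35 to 7.38 elsewhere in the group. None of the 7 members was among them. The WT group of 3 is too small for this search, so the low WT replicate 3 was not tested in this way.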

How the results depend on the processing

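All 7 members kept a fitted value below 0 under all 19 alternatives, and 0 reversed. The count of genes called, 75, was 142 on the mean signal without background correction and 142 on the authors' table. It was 13 without the filter on dim probes, 269 with array weights and 0 by the unpaired t-test. Members called, 0, became 4 with array weights. Leaving out each mouse in turn gave 3 to 416 genes called, 0 to 6 members called, 4 to 7 members without overlap, and a member median of -1.68 to -0.877. The shares of all genes without overlap in these fits are not given here. The high ends of the counts came without WT replicate 3, and without WT replicate 1 the gene count was 3. Over the other alternatives the member median ran from -1.41 to -0.823, the low end with array weights and the high end with normexp background correction. Acot2 was -0.65 with normexp correction, -0.84 on the mean signal and -0.85 on the authors' table, and Acot12 was -0.10 without WT replicate 2. Acot5 ranged from -2.84 to -1.33, the latter as the mean of its probes. With the replicate number as a block (mice 1 to 3 of each genotype) 66 genes and 0 members were called, and 55 genes and 0 members without the block in the same mice, a fit added after seeing the data. The numbers are not taken as pairs, since same-numbered deviations correlated at -0.05, 0.01 and 0.24. The causes were not tested.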
